A study of Homo sapiens with 8 samples.

Results

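Neurexins, neuroligins and cerebellins were followed through 9 of their genes: the neurexins NRXN2 and NRXN3, the neuroligins NLGN1, NLGN2, NLGN3 and NLGN4X, and the cerebellins CBLN1, CBLN3 and CBLN4. They were chosen by symbol, as 9 of the 52719 genes to which the deposited transcripts could be assigned, and 65 of the 194993 transcripts in the data belonged to them. Transcript levels had been measured by mRNA sequencing in SH-SY5Y, a cloned subline of the human neuroblastoma line SK-N-SH that is used as a model of sympathetic neurons and is a single cloned line. Differentiated cells had been given 9-cis retinoic acid at 1 µM for 7 days (4 libraries, replicates 21 to 24), and undifferentiated cells of the same line were the comparison (4 libraries, replicates 17 to 20). The growth medium, DMEM/F12 with serum and antibiotics, was the same for both groups, and the labels record no dose, vehicle or day for the undifferentiated cells, so treatment and time in culture cannot be told apart.

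Neurexins sit in the presynaptic membrane and neuroligins in the postsynaptic membrane, and the pair binds across the synaptic cleft. Cerebellins are secreted proteins of the C1q family that bridge neurexins to postsynaptic delta glutamate receptors. Neuroligins differ in the synapses they are best known from, NLGN1 from excitatory and NLGN2 from inhibitory ones, and alternative exons in neurexins and neuroligins set which partner is bound.

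The deposited values are TPM, the abundance measure given by Salmon, a share of each library's transcripts corrected for length. They sum to 1000000 in each library, so they hold no read depth, and counting error cannot be stated. Per library, 16265 to 17370 genes had at least 1 TPM. All 11 noradrenergic neuroblastoma markers averaged 1 TPM or more in both groups, and their sum was 1929 to 2259 TPM in differentiated and 2662 to 2756 TPM in undifferentiated libraries. The sum of 10 mesenchymal markers was 1314 to 1419 TPM in differentiated and 410 to 449 TPM in undifferentiated libraries, with PRRX1 under 0.1 TPM throughout. The sum of 7 Schwann cell markers was 61.5 to 70.3 TPM in differentiated and 27.2 to 29.1 TPM in undifferentiated libraries, with SOX10, the defining gene, under 0.1 TPM in every library. The sum of 4 epithelial markers was 13.5 to 18.0 TPM in differentiated and 2.09 to 3.32 TPM in undifferentiated libraries. Blood markers summed to at most 1.20 TPM in differentiated and 1.78 TPM in undifferentiated libraries, endothelial markers to at most 0.278 TPM in differentiated and 0.0445 TPM in undifferentiated libraries, and astrocyte markers to at most 3.66 TPM in differentiated and 2.77 TPM in undifferentiated libraries. HBB, CDH5, TEK and AQP4 were under 0.1 TPM throughout. Of the single libraries, leaving out differentiated replicate 22 moved the count of genes called most, up to 9763 against 8761 of 17077. Leaving out undifferentiated replicate 18 lowered it almost as much, to 7770. The member calls were the same with and without replicate 22. The part of these marker differences in the results below was not tested, and in bulk RNA fewer cells of a type and less RNA per cell cannot be told apart.

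The sequences that separate the splice forms of these genes, and the promoters of the neuroligins that were higher, are shown first. NLGN2 has an exon of 51 bases, and NLGN3 a pair of exons of 60 bases each, at splice site A. In these lines, capitals mark the exon and the 12 lower-case bases on each side are its neighbours in the spliced transcript, read 5′ to 3′ from GENCODE 29 transcripts (GRCh38).
NLGN2, exon of 51 bases, chr17:7412157-7412207, plus strand: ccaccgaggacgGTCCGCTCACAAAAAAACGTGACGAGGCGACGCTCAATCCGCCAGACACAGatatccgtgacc
NLGN3, first exon of 60 bases, chrX:71148846-71148905, plus strand: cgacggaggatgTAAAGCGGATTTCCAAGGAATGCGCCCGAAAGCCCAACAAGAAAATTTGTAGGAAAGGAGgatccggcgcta
NLGN3, second exon of 60 bases, chrX:71153477-71153536, plus strand: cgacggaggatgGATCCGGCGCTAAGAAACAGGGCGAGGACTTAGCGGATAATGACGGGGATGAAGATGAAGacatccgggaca

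Retinoic acid receptors pair with retinoid X receptors and bind repeats of a hexamer. Its usual form and 3 variants were searched on both strands in the 250 bases before the start of each member that had a RefSeq promoter entry (GRCh38.p14), and no pair of matches overlapped. Of 35116 promoters of that length, AGGTCA was in 12.1%, while the variant AGTTCA was in 8.80%, the variant GGGTCA in 12.1%, and the variant GGTTCA in 7.16%, with any of the 4 in 33.8%. Of the 10 member promoters searched, 2 held a match: one of the 2 NLGN1 promoters held 1 and the NLGN2 promoter held 2. The other NLGN1 promoter, the NLGN3 promoter and those of NRXN3, NLGN4X and CBLN3 held none. NRXN2, CBLN1 and CBLN4, the members called lower in differentiated cells, had no entry and were not searched. Capitals mark the matches, all on the opposite strand and so written as the reverse complement, and a match is only a match of letters.
NLGN1, the promoter with a match, chr3:173397494-173397743, plus strand: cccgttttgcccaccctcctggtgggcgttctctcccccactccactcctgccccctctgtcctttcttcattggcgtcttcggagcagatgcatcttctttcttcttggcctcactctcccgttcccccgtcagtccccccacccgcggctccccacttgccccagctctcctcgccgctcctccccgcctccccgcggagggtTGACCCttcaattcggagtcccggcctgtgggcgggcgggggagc
NLGN2, chr17:7407595-7407844, plus strand: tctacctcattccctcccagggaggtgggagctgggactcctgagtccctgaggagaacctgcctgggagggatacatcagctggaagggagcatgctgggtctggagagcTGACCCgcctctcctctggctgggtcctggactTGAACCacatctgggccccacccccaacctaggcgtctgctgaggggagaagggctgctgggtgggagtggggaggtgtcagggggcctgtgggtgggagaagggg
NLGN3, chrX:71144591-71144840, plus strand: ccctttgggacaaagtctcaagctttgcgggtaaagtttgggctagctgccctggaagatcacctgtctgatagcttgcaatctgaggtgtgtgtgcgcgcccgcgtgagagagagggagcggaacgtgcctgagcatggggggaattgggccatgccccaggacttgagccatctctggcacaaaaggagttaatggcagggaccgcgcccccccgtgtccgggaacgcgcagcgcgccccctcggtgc

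Of the 9 genes, 7 averaged 1 TPM or more over the 8 libraries and were tested with limma on log2(TPM+1), adjusted over all 17077 genes tested. NLGN1, NLGN2 and NLGN3 were higher in differentiated cells, NRXN2, CBLN1 and CBLN4 were lower, and NLGN4X was not called. Over all genes tested, 51.3% were called, 33.9% higher and 17.4% lower, so a count of 6 calls among 7 genes, of which CBLN4 passed the minimum only through the undifferentiated libraries, is read against a background in which about as many genes were called as not. The groups did not overlap in 8 of the 9 genes and in 6 of the 7 tested, where 49.6% of all genes tested had groups that did not overlap (32.3% with differentiated libraries above and 17.3% with them below). The median log2 fold change of the 7 genes was 0.11, against 0.10 for all genes tested. Of all calls, 66.1% were higher in differentiated cells, 50.5% after median-of-ratios scaling and 45.0% after quantile normalization, which moved the median of all genes to -0.02 and -0.07. The 6 member calls and their directions held under both.

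**Figure D1:**
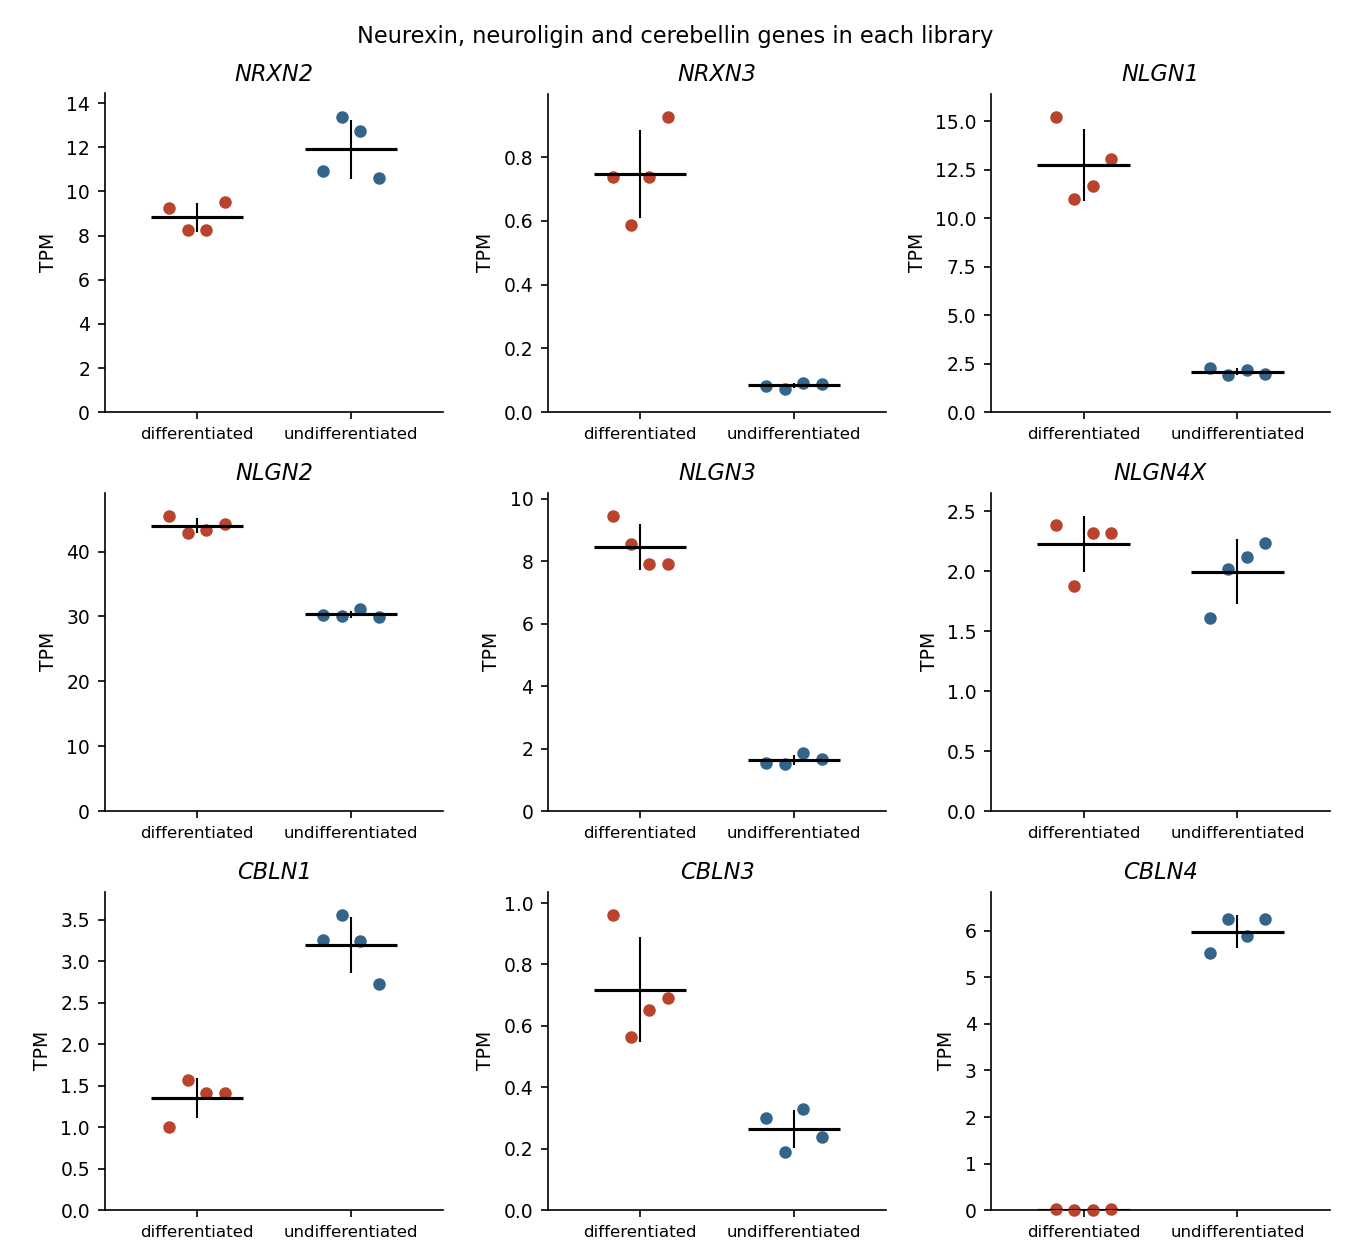
TPM of the 9 genes in each library (y axis, linear from 0), differentiated on the left and undifferentiated on the right of each panel. Points are libraries, the horizontal bar is the mean and the vertical line is 1 SD (n = 4 per group). The groups overlap only for NLGN4X.

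**Figure D2:**
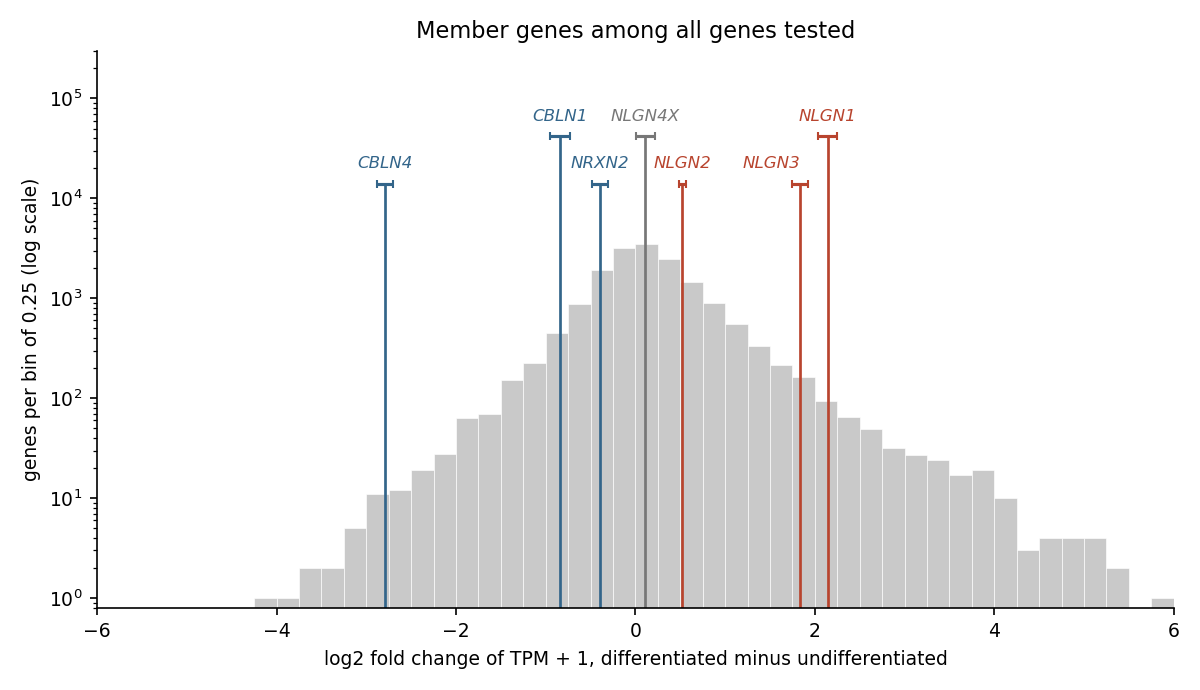
Log2 fold changes of the 7 tested genes (vertical lines, with the SE as a horizontal bar) over the histogram of all 17077 genes tested, with the number of genes on a log axis. Red lines are genes called higher in differentiated cells, blue lines genes called lower, and the grey line NLGN4X. CBLN4 at -2.79 and NLGN1 at 2.14 lie far out in their tails, while NLGN4X at 0.11 lies at the middle.

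Among the postsynaptic neuroligins, NLGN1 rose most. It spans chr3:173396284-174286644 on the plus strand (ENSG00000169760, GRCh38). It had 15.2, 11.0, 11.7 and 13.1 TPM in differentiated replicates 21 to 24, and 2.30, 1.94, 2.18 and 1.95 TPM in undifferentiated replicates 17 to 20. All differentiated libraries were far above all undifferentiated ones, with replicate 21 the highest. NLGN1 averaged 12.7 ± 1.86 TPM in differentiated and 2.09 ± 0.176 TPM in undifferentiated cells (SD, n = 4 each), a ratio of 6.09. Its log2 fold change was 2.14 ± 0.11 (SE, limma adjusted p = 1.05e-06), the 300th largest rise of 17077 genes.

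NLGN3, a neuroligin found at both excitatory and inhibitory synapses, also rose (ENSG00000196338, chrX:71144831-71171201, plus strand). It had 9.44, 8.55, 7.92 and 7.90 TPM in differentiated libraries and 1.55, 1.51, 1.86 and 1.66 TPM in undifferentiated libraries. No library of one group came near those of the other. The means were 8.45 ± 0.724 TPM in differentiated and 1.65 ± 0.156 TPM in undifferentiated cells, a ratio of 5.13. The log2 fold change was 1.83 ± 0.09 (limma adjusted p = 7.71e-07), 465th among the rises. Over protein-coding transcripts only it was 1.51, while that of NLGN1 was 2.18.

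NLGN2, the neuroligin of inhibitory synapses, was the most abundant of the 9 genes in both groups and rose by a smaller factor (ENSG00000169992, chr17:7404874-7419860, plus strand). It had 45.5, 42.9, 43.3 and 44.2 TPM in differentiated libraries and 30.3, 30.0, 31.1 and 29.9 TPM in undifferentiated libraries. The libraries of each group lay close together, and the groups were well apart. The means were 44.0 ± 1.12 TPM in differentiated and 30.3 ± 0.525 TPM in undifferentiated cells, a ratio of 1.45, with a log2 fold change of 0.52 ± 0.04 (limma adjusted p = 1.03e-05). That is the 3807th rise of 17077, and it was 0.39 after either median-of-ratios scaling or quantile normalization.

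NLGN4X, the X-linked neuroligin 4 (ENSG00000146938, chrX:5840637-6228863, minus strand), had 2.38, 1.88, 2.32 and 2.32 TPM in differentiated libraries and 1.61, 2.02, 2.12 and 2.24 TPM in undifferentiated libraries. The ranges overlapped, with differentiated replicate 22 below 3 undifferentiated libraries. The log2 fold change was 0.11 ± 0.11 (limma adjusted p = 0.440), and it was -0.08 after quantile normalization (adjusted p = 0.531), so no direction can be given.

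The sum of the 4 neuroligins was 67.4 ± 3.64 TPM in differentiated and 36.1 ± 0.795 TPM in undifferentiated cells. NLGN2 made up 62.7% to 66.7% of that sum in differentiated and 83.4% to 84.7% in undifferentiated libraries. The NLGN1 share averaged 18.8% in differentiated and 5.80% in undifferentiated cells. The NLGN3 share averaged 12.5% in differentiated and 4.57% in undifferentiated cells. The neuroligin mixture thus held a larger share of NLGN1 and NLGN3 in every differentiated library, and NLGN2 was the majority in all 8 libraries.

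**Figure D3:**
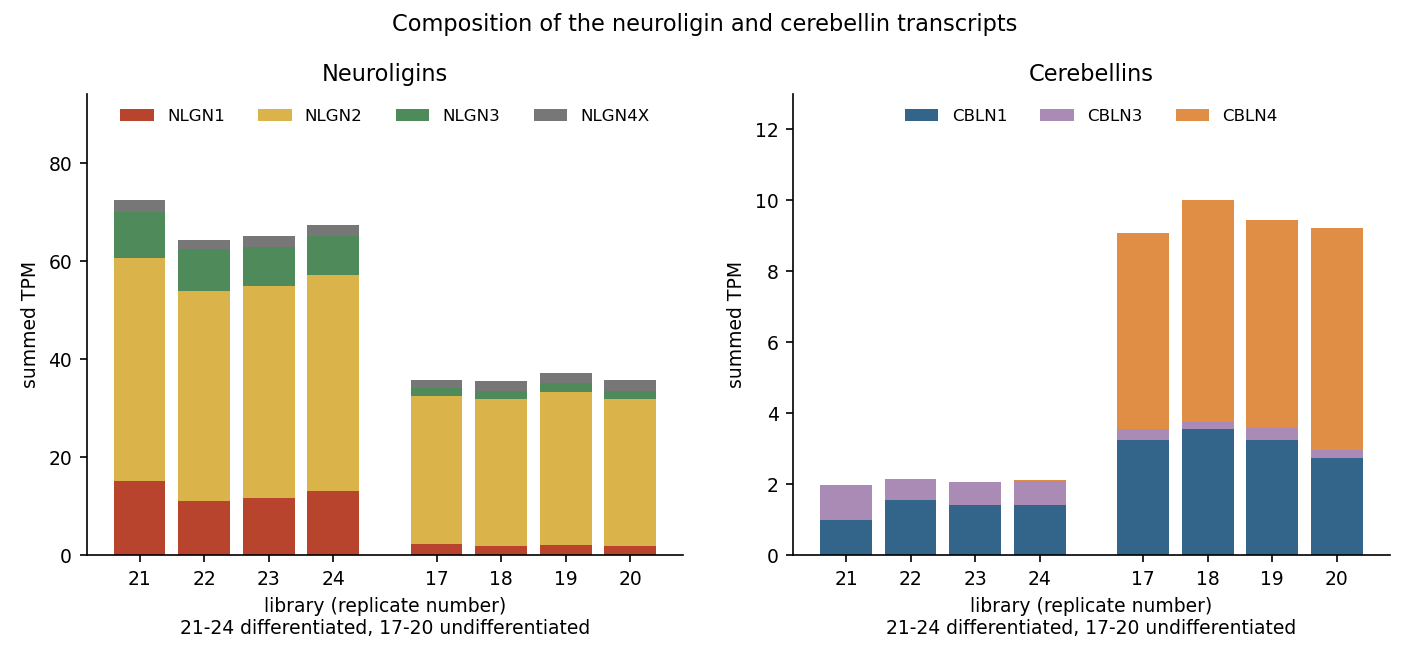
Summed TPM of the neuroligins (left) and of CBLN1, CBLN3 and CBLN4 (right) in each library, split by gene; bars of replicates 21 to 24 are differentiated and those of 17 to 20 undifferentiated. The neuroligin bars are 64.4 to 72.5 TPM high in differentiated and 35.5 to 37.2 TPM in undifferentiated libraries, and the orange CBLN4 part is visible only in undifferentiated libraries.

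Of the presynaptic neurexins, NRXN2 was the main one measured (ENSG00000110076, chr11:64606174-64723188, minus strand). It had 9.26, 8.24, 8.25 and 9.54 TPM in differentiated libraries and 10.9, 13.4, 12.7 and 10.6 TPM in undifferentiated libraries. Every differentiated library was below every undifferentiated one, by a narrow margin between differentiated replicate 24 and undifferentiated replicate 20. The means were 8.82 ± 0.677 TPM in differentiated and 11.9 ± 1.34 TPM in undifferentiated cells, with a log2 fold change of -0.39 ± 0.09 (limma adjusted p = 0.00656). An antisense gene that overlaps it, AP001092.1, averaged 0.169 ± 0.129 TPM in differentiated and 0.925 ± 0.308 TPM in undifferentiated cells. Whether the counting used strand is not given in the sources used here, so reads of the antisense gene and of NRXN2 may be mixed.

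NRXN3 (ENSG00000021645, chr14:78170373-79868290, plus strand) was under 1 TPM in all libraries and was not in the fit. It had 0.738, 0.588, 0.738 and 0.925 TPM in differentiated libraries and 0.0836, 0.0730, 0.0927 and 0.0872 TPM in undifferentiated libraries. The groups did not overlap, at levels where the error of a single value is unknown. The difference on the log2(TPM+1) scale was 0.69, and 2.19 with 0.1 TPM added in place of 1, each with an exact two-sided permutation p of 0.0286, the smallest that 4 against 4 libraries can give. NRXN3 made up 7.77% of the neurexin sum in differentiated and 0.709% in undifferentiated cells.

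Among the secreted cerebellins, CBLN4, which binds neurexins, fell to near 0 TPM (ENSG00000054803, chr20:55997440-56005472, minus strand). It had 0.0150 and 0.0153 TPM in differentiated replicates 21 and 24 and was listed at 0 in replicates 22 and 23. In undifferentiated libraries it had 5.51, 6.26, 5.88 and 6.26 TPM. It was thus the third most abundant of the 9 genes in undifferentiated cells and the least abundant in differentiated cells. The log2 fold change was -2.79 ± 0.09 (limma adjusted p = 9.81e-08), the 21st largest fall of 17077 genes. Its size depends on the value added before the logarithm: with 0.1 TPM in place of 1 it was -5.82.

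CBLN1, the founding cerebellin, which links neurexins to postsynaptic receptors, also fell (ENSG00000102924, chr16:49277917-49281831, minus strand). It had 1.01, 1.57, 1.41 and 1.41 TPM in differentiated libraries and 3.25, 3.56, 3.24 and 2.73 TPM in undifferentiated libraries. All undifferentiated libraries were higher than all differentiated ones. The means were 1.35 ± 0.240 TPM in differentiated and 3.20 ± 0.342 TPM in undifferentiated cells, with a log2 fold change of -0.84 ± 0.11 (limma adjusted p = 0.000368).

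CBLN3, which in mice is secreted only together with CBLN1, was low in both groups and was not in the fit (ENSG00000139899, chr14:24426532-24430954, minus strand). It had 0.961, 0.564, 0.652 and 0.692 TPM in differentiated libraries and 0.300, 0.189, 0.328 and 0.239 TPM in undifferentiated libraries. The groups did not overlap, with a difference of 0.44 on the log2(TPM+1) scale and of 1.16 with 0.1 TPM added in place of 1 (exact permutation p = 0.0286 for each, the smallest possible). CBLN3 overlaps KHNYN on the opposite strand. KHNYN averaged 29.05 ± 6.0 TPM in differentiated and 19.0 ± 0.577 TPM in undifferentiated cells. The part of KHNYN reads in the CBLN3 values was not tested.

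The sum of the 3 cerebellins was 2.07 ± 0.0680 TPM in differentiated and 9.44 ± 0.409 TPM in undifferentiated cells. CBLN4 made up 0 to 0.755% of it in differentiated libraries and 60.8% to 67.8% in undifferentiated libraries. CBLN1 was the largest part in all 4 differentiated libraries, with 50.8% to 73.6%, and held 29.6% to 35.9% in undifferentiated libraries.

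Ordered by level, differentiated cells had NLGN2 first, then NLGN1, NRXN2, NLGN3, NLGN4X, CBLN1, NRXN3, CBLN3 and CBLN4. The ranges of NRXN2 and NLGN3 overlapped there, and so did those of NRXN3 and CBLN3. Undifferentiated cells had NLGN2, NRXN2, CBLN4, CBLN1, NLGN1, NLGN4X, NLGN3, CBLN3 and NRXN3, with the ranges of NLGN1 and NLGN4X and those of NLGN4X and NLGN3 overlapping. NLGN1 was the second in differentiated cells and the fifth in undifferentiated cells.

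Lane 7 held undifferentiated replicates 17 and 18 and lane 8 the remaining 6 libraries, so the groups could be compared within lane 8 alone (4 differentiated, 2 undifferentiated). There the log2 fold changes were 2.16 for NLGN1, 1.77 for NLGN3, 0.51 for NLGN2, -0.37 for NRXN2, -0.77 for CBLN1 and -2.81 for CBLN4, all still called, NRXN2 with an adjusted p of 0.0481. NLGN4X was at 0.02, and 6332 of all 17077 genes were called in lane 8 alone. For NRXN3 and CBLN3 the differences in lane 8 were 0.68 and 0.42 with exact permutation p = 0.0667 each, the smallest that 4 against 2 libraries can give.

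Transcripts were tested in the same way, and of the 65 member transcripts 17 averaged 1 TPM or more in a group and 14 were tested. Of these 7 were called, 5 higher and 2 lower, where 28.5% of all 56511 transcripts tested were called, 18.3% higher and 10.3% lower. Of the 7 called, 5 averaged under 1 TPM in one group and passed the minimum through the other, so this count is a description. NLGN1-206, with a complete coding sequence of 2469 bases, was the most abundant NLGN1 transcript in every library, with 53.7% to 66.1% of the gene's TPM in differentiated and 39.3% to 55.2% in undifferentiated libraries. It had 8.18, 7.28, 7.35 and 7.21 TPM in differentiated libraries and 1.00, 1.07, 0.857 and 0.890 TPM in undifferentiated libraries. The groups were far apart, and the log2 fold change was 2.12 ± 0.09 (limma adjusted p = 2.31e-06). Its first base, at 173398448, lies 705 bases past the end of the NLGN1 promoter shown above, and that of NLGN1-203, at 173397780, lies 37 bases past it. NLGN1-203, which is incomplete at its end, averaged 1.94 ± 0.618 TPM in differentiated and 0.387 ± 0.157 TPM in undifferentiated cells (log2 fold change 1.07 ± 0.19, adjusted p = 0.00340), and in lane 8 alone it was no longer called (0.94, adjusted p = 0.0536). NLGN1-205, also incomplete at its end, starts at 173396284, upstream of that promoter and 333 bases past the other one. It averaged 1.62 ± 0.282 TPM in differentiated and 0.188 ± 0.0458 TPM in undifferentiated cells, with groups that did not overlap, and was under the minimum. NLGN1-201, which starts at 173584555, encodes a coding sequence of the same length and averaged 1.04 ± 0.669 TPM in differentiated and 0.347 ± 0.140 TPM in undifferentiated cells, with overlapping groups.

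NLGN2-201 carried 76.3% to 89.9% of NLGN2 in differentiated and 79.9% to 83.9% in undifferentiated libraries. It had 34.7, 38.6, 35.9 and 34.6 TPM in differentiated libraries and 24.3, 24.0, 26.1 and 24.3 TPM in undifferentiated libraries, with a log2 fold change of 0.53 ± 0.06 (limma adjusted p = 0.000335). NLGN2-204 has the same 2505 bases of coding sequence but starts at 7404874 rather than 7408183. It averaged 5.30 ± 1.89 TPM in differentiated and 4.32 ± 0.177 TPM in undifferentiated cells and was not called (0.19 ± 0.23, adjusted p = 0.588). Differentiated replicate 22 had 2.70 TPM of it, the lowest of all 8 libraries, and without that library it was called (0.42, adjusted p = 0.0192).

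NLGN3 was split among forms that differ in the pair of 60-base exons shown above. NLGN3-202, which holds the second exon, averaged 3.40 ± 1.03 TPM in differentiated and 0.831 ± 0.163 TPM in undifferentiated cells (log2 fold change 1.24 ± 0.17, limma adjusted p = 0.00115). NLGN3-205, which holds neither, averaged 2.21 ± 0.414 TPM in differentiated and 0.442 ± 0.155 TPM in undifferentiated cells (1.15 ± 0.15, adjusted p = 0.000753). NLGN3-201, which holds both, averaged 0.914 ± 0.465 TPM in differentiated and 0.340 ± 0.104 TPM in undifferentiated cells, was under the minimum and was not tested. NLGN3-204, a processed transcript without a coding sequence, was uneven, with 0.329, 3.88, 2.23 and 0.874 TPM in differentiated libraries and 0.0767, 0, 0 and 0.0625 TPM in undifferentiated libraries. It made up 45.4% of NLGN3 in replicate 22, which had the least NLGN3-202 of the differentiated libraries.

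CBLN1 and CBLN4 each had 1 transcript called lower. CBLN1-201 averaged 1.35 ± 0.240 TPM in differentiated and 2.88 ± 0.450 TPM in undifferentiated cells (log2 fold change -0.72 ± 0.13, limma adjusted p = 0.00479), and in lane 8 alone it was no longer called (-0.67, adjusted p = 0.0658). CBLN4-201 is the only CBLN4 transcript in the data and carries the values of the gene. NLGN4X-204 averaged 1.80 ± 0.137 TPM in differentiated and 1.14 ± 0.267 TPM in undifferentiated cells and was not called (0.40 ± 0.13, adjusted p = 0.0570).

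**Figure D4:**
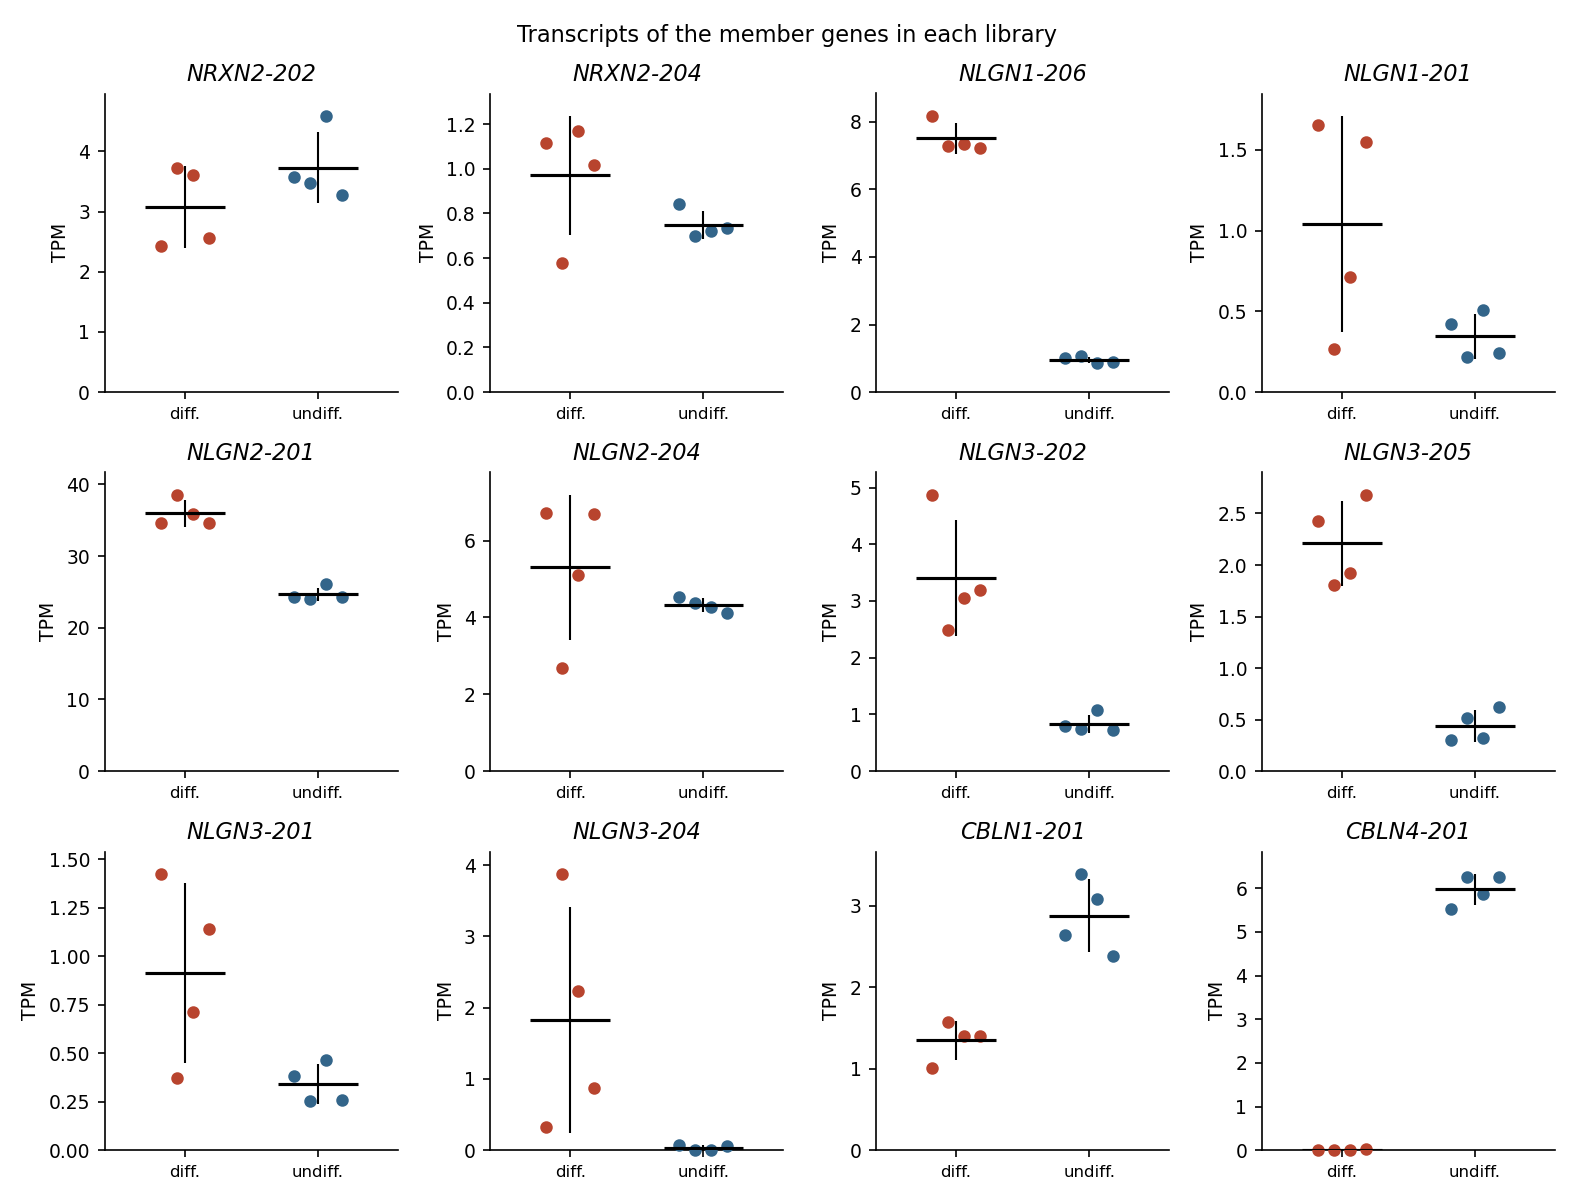
TPM of 12 transcripts of the member genes in each library (y axis, linear from 0), differentiated (diff.) left and undifferentiated (undiff.) right. Points are libraries, the horizontal bar is the mean and the vertical line 1 SD (n = 4 per group). NLGN1-206, NLGN2-201, NLGN3-202 and NLGN3-205 are higher in every differentiated library, while NLGN3-204 ranges from 0.329 to 3.88 TPM within the differentiated group.

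None of the 4 NRXN2 transcripts tested was called, while the gene's sum over all 16 of its transcripts was. Their log2 fold changes lay between -0.83 and -0.22, with limma adjusted p from 0.0550 to 0.317. NRXN2-210, a retained intron form, and NRXN2-215, a processed transcript, have no coding sequence, and NRXN2-207 is incomplete at both ends. Over protein-coding transcripts only, the gene's log2 fold change was -0.35 (limma adjusted p = 0.0114). These transcripts include forms incomplete at both ends. Of those, NRXN2-206, NRXN2-207 and NRXN2-209 averaged lower in differentiated cells and NRXN2-208 higher. NRXN2-207 averaged 0.583 ± 0.474 TPM in differentiated and 1.76 ± 0.664 TPM in undifferentiated cells. For NRXN2-207 and NRXN2-215 the call depended on the processing. NRXN2-207 was called after median-of-ratios scaling (adjusted p = 0.0426), after quantile normalization (adjusted p = 0.0440) and without differentiated replicate 24 (adjusted p = 0.0364). NRXN2-215 was called after the same scalings (adjusted p = 0.0255 and 0.0217), without the variance trend (adjusted p = 0.0407) and without differentiated replicate 21 (adjusted p = 0.0400). The main one, NRXN2-202, is a short (beta) form of 1998 coding bases and averaged 3.08 ± 0.681 TPM in differentiated and 3.73 ± 0.588 TPM in undifferentiated cells. The long (alpha) form NRXN2-204, of 4926 coding bases, averaged 0.970 ± 0.268 TPM in differentiated and 0.748 ± 0.0628 TPM in undifferentiated cells. With the other long forms it summed to 1.23 ± 0.170 TPM in differentiated and 1.07 ± 0.0692 TPM in undifferentiated cells. Long forms, taken as those with at least 3000 coding bases, made up 36.6%, 21.1%, 25.9% and 32.8% of long and short forms together in differentiated libraries and 24.7%, 22.9%, 18.1% and 24.5% in undifferentiated libraries. Replicate 22 lay among the undifferentiated libraries and the other 3 above them. The difference of 6.53 percentage points gave an exact permutation p of 0.2; without replicate 22 it was 9.21 points with p = 0.0286, the smallest possible there. For NRXN3, long forms had 0.0574 and 0.0586 TPM in differentiated replicates 21 and 24 and were listed at 0 in the other 6 libraries.

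The share of a gene's TPM could be tested for 6 member transcripts, all of NRXN2 or NLGN2, and none was called (limma on the arcsine square root, adjusted p from 0.221 to 0.895), where 2.39% of the 22951 shares tested were called, 1.32% higher and 1.07% lower, with a difference of at least 10 percentage points. Among those not tested, NLGN4X-204 made up 72.1% to 90.4% of NLGN4X in differentiated and 48.4% to 66.8% in undifferentiated libraries, without overlap. Cassette exons are those that some coding transcripts hold and others skip. Their share is the TPM of holding transcripts out of holding and skipping ones with the same flanking splice sites. Such exons, with versions of an exon counted separately, were found 12 times in the members, and 7 could be tested in genes with at least 5 TPM in each group. None passed, but 4 libraries against 4 cannot give an exact p below 0.0286, which for an exon on its own becomes 0.2 when adjusted over 7 exons, so missing the threshold was fixed by the design for any single exon. The 51-base NLGN2 exon was held by 94.1% ± 2.17 in differentiated and 95.6% ± 1.42 in undifferentiated cells (exact permutation p = 0.371, adjusted over 7 exons 0.433), where the transcript that skips it is incomplete at both ends.

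Of the NRXN2 exons, one of 72 bases was held by 37.4%, 58.0%, 33.3% and 37.8% in differentiated libraries and by 50.9%, 68.6%, 67.0% and 62.6% in undifferentiated libraries. Differentiated replicate 22 lay inside the undifferentiated range. The difference of -20.7 points had an exact permutation p of 0.0571, adjusted 0.2, on 1.38 to 1.78 TPM in differentiated and 1.71 to 2.23 TPM in undifferentiated libraries. A 27-base exon differed by -8.20 points (exact permutation p = 0.343), and by -14.7 points without replicate 22 (exact permutation p = 0.0286, not adjusted over exons). It rested on 0.992 to 1.40 TPM in differentiated and 1.02 to 1.17 TPM in undifferentiated libraries. NRXN2-204 is the only transcript that skips the 72- and 27-base exons and also holds the 24-base one below, so these are not separate results. A 30-base exon differed by -26.0 points (exact permutation p = 0.143, adjusted 0.333). Only NRXN2-208, which is incomplete at both ends, skips it, on 0.798 to 1.42 TPM in differentiated and 1.23 to 1.53 TPM in undifferentiated libraries. Another NRXN2 exon, annotated in 24- and 45-base versions that share an end, had higher mean shares in differentiated cells. The 24-base version was held by 56.0% ± 4.63 in differentiated and 46.6% ± 6.69 in undifferentiated cells (exact permutation p = 0.0571, adjusted 0.2). The 45-base version was held by 23.6% ± 21.3 in differentiated and 11.7% ± 13.7 in undifferentiated cells (exact permutation p = 0.543). It rested on 0.798 to 1.42 TPM in differentiated and 0.891 to 1.46 TPM in undifferentiated libraries. Each share leaves out the transcripts that hold the other version. The transcripts that skip both, NRXN2-206, NRXN2-208 and NRXN2-209, are incomplete at both ends. The groups overlapped for each of these exons. For the first 60-base exon of NLGN3, NLGN3-201, which holds it, was set against NLGN3-202, which skips it. NLGN3-201 made up 20.2% ± 5.66 of their sum in differentiated and 28.7% ± 3.47 in undifferentiated cells. For the second, NLGN3-202 made up 59.3% ± 3.95 of its sum with NLGN3-203 and NLGN3-205 in differentiated and 65.4% ± 10.9 in undifferentiated cells. These are not shares of all NLGN3 forms, since the first leaves out NLGN3-205 and the second NLGN3-201. These were not tested because NLGN3 was under 5 TPM in undifferentiated cells.

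Genes related to the members were described by 4 lists: extracellular partners with ligands of such partners, intracellular scaffolds, splicing and shedding genes, and other synaptic adhesion genes. The last were not chosen as partners of the members. Of 37 extracellular partners, 20 were tested, of which 8 were higher, 7 lower and 5 not called (75% called). Their median log2 fold change was -0.04. Over all genes tested, 51.3% were called, 33.9% higher and 17.4% lower, with a median of 0.10. Of the partners called, 3 were under 1 TPM in a group and so passed the minimum through the other. The largest rise was in CA10, a carbonic anhydrase-related protein that binds neurexins, at 5.65 ± 0.906 TPM in differentiated and 0.120 ± 0.0826 TPM in undifferentiated cells (log2 fold change 2.56, limma adjusted p = 1.07e-06). Its relative CA11 rose too, to 43.6 ± 2.62 TPM in differentiated against 17.3 ± 0.739 TPM in undifferentiated cells (1.29, adjusted p = 6.19e-07). CLSTN3, a calsyntenin, averaged 30.0 ± 4.41 TPM in differentiated and 12.6 ± 1.23 TPM in undifferentiated cells (1.18, adjusted p = 3.58e-05). FLRT1, a ligand of latrophilins, averaged 0.229 ± 0.10 TPM in differentiated and 2.67 ± 0.308 TPM in undifferentiated cells (-1.58, adjusted p = 1.08e-05).

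The postsynaptic LRRTM proteins, which bind neurexins, went both ways. LRRTM2 averaged 1.14 ± 0.653 TPM in differentiated and 3.02 ± 0.411 TPM in undifferentiated cells (log2 fold change -0.94, limma adjusted p = 0.00421). LRRTM4 averaged 2.89 ± 0.300 TPM in differentiated and 1.24 ± 0.334 TPM in undifferentiated cells (0.80, adjusted p = 0.000945). Dystroglycan, DAG1, which binds neurexins from the other side of the cleft, averaged 45.1 ± 5.69 TPM in differentiated and 25.5 ± 0.130 TPM in undifferentiated cells (0.79, adjusted p = 8.48e-05). The neurexophilins, secreted ligands of neurexins, were low. NXPH2 averaged 2.20 ± 0.315 TPM in differentiated and 0.779 ± 0.127 TPM in undifferentiated cells (0.85, adjusted p = 0.000376). NXPH1, under the minimum and not tested, averaged 0.205 ± 0.0369 TPM in differentiated and 1.53 ± 0.173 TPM in undifferentiated cells, with groups that did not overlap in the opposite direction. The cerebellin receptor gene GRID1 was low and was not tested: it averaged 0.225 ± 0.0592 TPM in differentiated and 1.71 ± 0.0802 TPM in undifferentiated cells, with groups that did not overlap. MDGA1, a protein that covers neuroligins, was also under the minimum, with 1.04 ± 1.01 TPM in differentiated and 0.199 ± 0.0585 TPM in undifferentiated cells. The MDGA1 groups overlapped. Differentiated libraries had 2.29, 0.173, 0.278 and 1.43 TPM, and undifferentiated libraries 0.201, 0.151, 0.280 and 0.162 TPM.

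Of 31 intracellular scaffold genes, 28 were tested, of which 9 were higher, 6 lower and 13 not called (53.6% called, close to the 51.3% of all genes), with a median of 0.03. In lane 8 alone 7 were called, and 9 with lane as a covariate. DLG2, the scaffold PSD-93, rose most, at 36.0 ± 8.22 TPM in differentiated and 3.07 ± 0.360 TPM in undifferentiated cells (log2 fold change 3.16, limma adjusted p = 1.19e-06). DLG4, or PSD-95, which binds the tails of neuroligins, averaged 30.7 ± 1.38 TPM in differentiated and 20.3 ± 0.284 TPM in undifferentiated cells (0.58, adjusted p = 1.71e-05). LIN7B, a partner of CASK, rose by 0.97 (adjusted p = 0.000234), while DLG3, or SAP102, and MAGI1 were lower, with log2 fold changes of -0.89 (adjusted p = 0.000685) and -1.01 (adjusted p = 0.000215). CASK, which binds neurexin tails, was not called (-0.10, adjusted p = 0.266). Gephyrin, GPHN, the inhibitory scaffold that works with NLGN2, was not called (-0.09, adjusted p = 0.611).

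Of 17 genes of splicing factors and shedding enzymes, 13 were tested, of which 6 were higher, 3 lower and 4 not called. That is 69.2% called with a median of 0.24, where 51.3% of all genes were called, 33.9% higher and 17.4% lower. PTBP1, a splicing repressor, averaged 204 ± 31.1 TPM in differentiated and 288 ± 21.6 TPM in undifferentiated cells (log2 fold change -0.50, limma adjusted p = 0.00599). KHDRBS1 and KHDRBS3, which act on alternative exons of neurexins, went opposite ways (-0.29, adjusted p = 0.000601, and 0.27, adjusted p = 0.0314). PSEN2, a catalytic subunit of gamma-secretase, rose by 0.62 (adjusted p = 0.000838), and the metalloprotease MMP2 by 0.48 (adjusted p = 8.48e-05). ADAM10, which sheds the ectodomain of NLGN1, was not called (0.25, adjusted p = 0.0687).

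Of 39 other synaptic adhesion genes, 30 were tested, of which 16 were higher, 5 lower and 9 not called. That is 70% called with a median of 0.36, where 51.3% of all genes were called, 33.9% higher and 17.4% lower. Of the listed genes called, 5 were under 1 TPM in a group. NTNG2, netrin-G2, averaged 17.1 ± 1.81 TPM in differentiated and 0.520 ± 0.271 TPM in undifferentiated cells (log2 fold change 3.59, limma adjusted p = 3.02e-07). NCAM2, a neural cell adhesion molecule, averaged 42.1 ± 5.60 TPM in differentiated and 3.91 ± 0.332 TPM in undifferentiated cells (3.13, adjusted p = 8.80e-08). SLITRK6 averaged 6.08 ± 0.467 TPM in differentiated and 30.8 ± 1.38 TPM in undifferentiated cells (-2.17, adjusted p = 6.62e-08). LRRC4, the netrin-G ligand NGL-2 that binds netrin-G2, averaged 0.986 ± 0.205 TPM in differentiated and 6.56 ± 0.543 TPM in undifferentiated cells (-1.93, adjusted p = 1.63e-06).

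**Figure D5:**
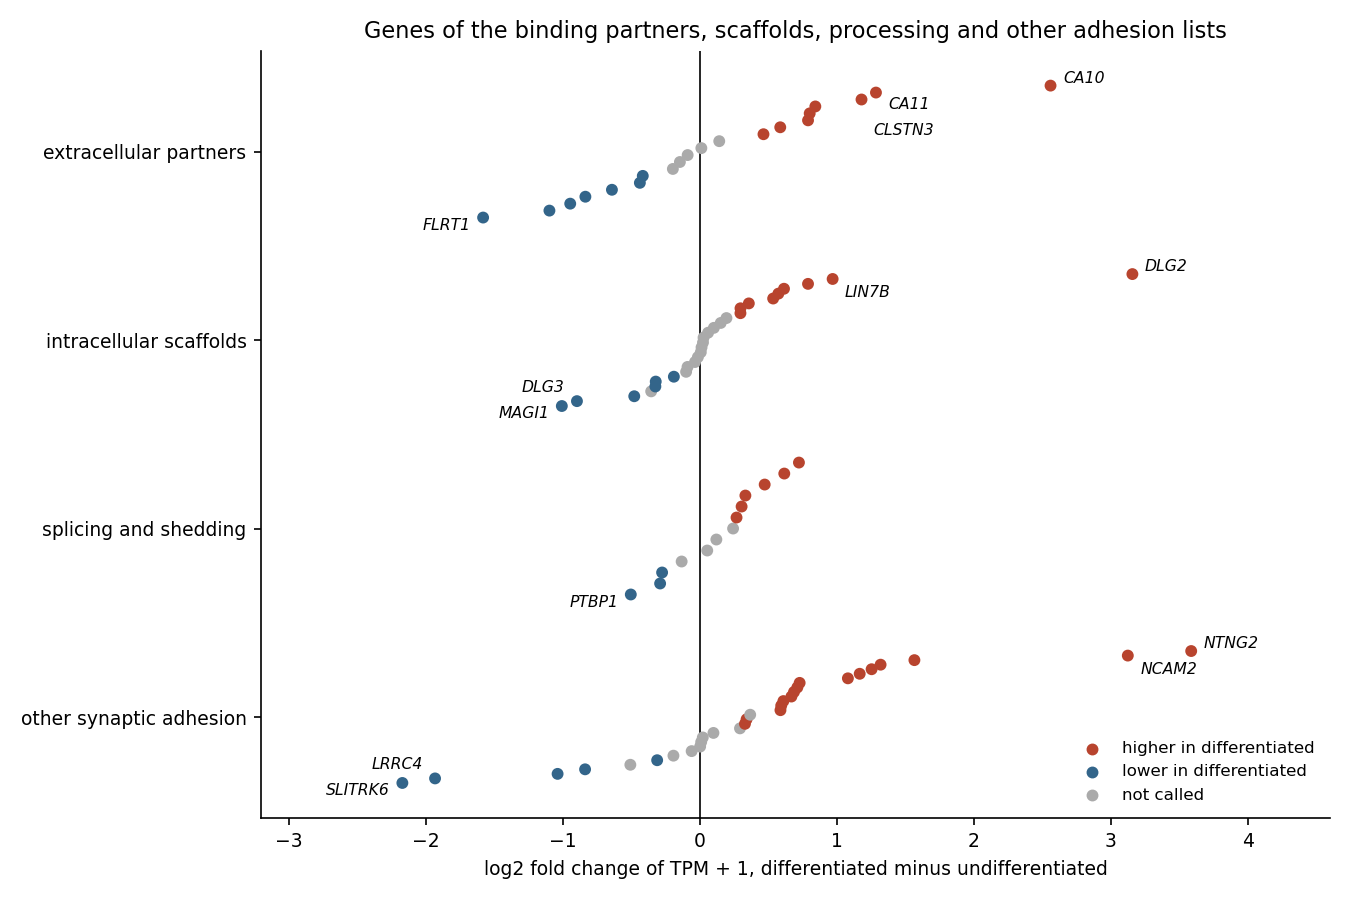
Log2 fold changes of the tested genes of each list (x axis), 1 point a gene, with points of a list spread upwards in order of their fold change. Red points were called higher in differentiated cells, blue points lower and grey points neither; up to 4 of the called genes with the largest changes in each list are named. DLG2 at 3.16 stands farthest from 0 among the scaffold genes, and NTNG2 at 3.59 and NCAM2 at 3.13 lead the other adhesion genes.

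The genes whose 8 values lay nearest those of NLGN1, by Euclidean distance of log2(TPM+1) among 12605 protein-coding genes, were CTSO (0.378), a lysosomal protease, CCDC183 (0.381) and HEG1 (0.454), a membrane protein of vessel development. CTSO had 11.1 to 12.9 TPM in differentiated and 1.85 to 2.17 TPM in undifferentiated libraries. Those nearest CBLN4 were CAPN6 (0.567), a calpain, DRGX (0.830), a homeobox factor of sensory neurons, and GFRA3 (0.960), the artemin receptor. CAPN6 had 0.192 to 0.252 TPM in differentiated and 5.68 to 6.07 TPM in undifferentiated libraries, a low level above 0 in every differentiated library.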

How the data were processed

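Messenger RNA of 8 SH-SY5Y libraries had been prepared with an Illumina stranded mRNA kit after RNeasy extraction, per the labels' protocols. The authors deposited TPM per Ensembl transcript; the submitters' processing notes name Salmon, FastQC 0.11.2 and the build GRCh37. Salmon's version and settings, the annotation and any use of strand were not given in the sources used here. Groups came from the cell type label, and library names give lane 7 for replicates 17 and 18 and lane 8 for the others. The labels do not say whether replicates are separate cultures, so p-values reflect only how these libraries vary, which may be technical.

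Transcripts were matched by identifier without version to GENCODE 29 (GRCh38), which supplied names, positions and exons; 92.8% matched, with 93.2% to 95.0% of a library's TPM, and TPM were summed per gene. Salmon divides reads among overlapping transcripts, so single transcripts are less certain than gene sums. Genes and transcripts with a mean of 1 TPM or more entered a limma fit (version 3.58.1, R 4.3.3; eBayes with trend) on log2(TPM+1), which understates changes of low genes, with no term but group; two-sided p-values were adjusted by Benjamini and Hochberg's method and called under 0.05. Shares of long forms and cassette exons, and genes under the minimum, had an exact two-sided permutation test over libraries. Other steps used scipy 1.17.1, numpy 2.4.6 and pandas 2.3.3 under Python 3.11.15. Promoters came from RefSeq (GRCh38.p14).

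The members and lists were chosen with earlier results of these data known. Named genes were all members, up to 4 called genes of each list with the largest change, listed genes that bind or act on a member, and the 3 protein-coding genes nearest to NLGN1 and to CBLN4. The fit was tested on simulated data with known changes. Alternatives covered 2 other scalings, pseudocounts of 0.1 and 0.5, no minimum and a minimum of 5 TPM, lane 8 alone, lane as a covariate, no variance trend, protein-coding transcripts only and each library left out. Some genes and exons that these rules cover are not reported here.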

Additional observations from a re-analysis of the deposited data

Results flagged for a closer look

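Within a group of 4 libraries, a library was picked out when its gap to the nearest other took up more of the group's range than Dixon's 95% critical value allows. This held in 4 of 70 groups of member values, where chance picks out about 1 in 20. For NLGN4X, differentiated replicate 22 had 1.88 TPM, below the other differentiated libraries at 2.32 to 2.38 TPM. For NLGN1-206, differentiated replicate 21 had 8.18 TPM, above the others at 7.21 to 7.35 TPM. For NLGN2-201, undifferentiated replicate 19 had 26.1 TPM, above the others at 24.0 to 24.3 TPM. For a 30-base cassette exon of NRXN2, undifferentiated replicate 17 had a share of 69.2%, while the other 3 undifferentiated libraries had 100%.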

How the results depend on the processing

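No paired analysis was possible because the groups share no replicate numbers. The count of member genes called was 6 in every alternative apart from no minimum (8, which adds NRXN3 and CBLN3 to the genes tested) and a minimum of 5 TPM (4, with fewer genes tested), and it was 6 with any 1 library left out. Of 796 alternative values of 51 single genes, transcripts and shares, 779 kept their direction and side of the threshold, 4 lost the call, 10 gained it (7 of them values of NRXN2-207 and NRXN2-215) and 3 turned round. The losses include NRXN3 and CBLN3 in lane 8 alone. These were fixed by the design, since 4 libraries against 2 cannot give an exact permutation p below 0.0667. Those that turned round were not called in any setting: NLGN4X at -0.082 after quantile normalization, and the NLGN2-201 share (0.51 points with all libraries) at -0.69 points in lane 8 alone and at -2.17 without differentiated replicate 22, the lowest of -2.17 to 2.36 points with 1 library left out. The count of transcripts called was 16122, and 9534 with a minimum of 5 TPM, 7742 in lane 8 alone and 9893 with lane as a covariate. The count of transcript shares called was 548, and 21 in lane 8 alone and 145 to 685 with 1 library left out, with 188, 145, 231 and 185 without undifferentiated replicates 17, 18, 19 and 20 and 179 without differentiated replicate 23. With a minimum of 5 TPM, 7 extracellular partners were called, against 15, because fewer were tested. Scaffold genes called numbered 7 in lane 8 alone and 9 with lane as a covariate, against 15. With 1 library left out, the NRXN2 long-form difference ranged from 4.03 to 9.21 points and that of the 27-base NRXN2 exon from -14.7 to -3.39 points, each with an exact permutation p of 0.0286, for the exon not adjusted over exons, without differentiated replicate 22 and above 0.05 otherwise. The cause of the other shifts was not tested. Depth is unknown, so the error of values near 0, such as those of CBLN4, CBLN3 and NRXN3, cannot be given.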
